A study of Drosophila melanogaster with 80 samples.

Results

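The heat-inducible Hsp70 genes of Drosophila melanogaster and their relative Hsp68 were followed in whole larvae, females and males kept at a constant or a daily fluctuating temperature. The genes were taken by FlyBase identifier: Hsp70Aa (FBgn0013275), Hsp70Ab (FBgn0013276), Hsp70Ba (FBgn0013277), Hsp70Bb (FBgn0013278), Hsp70Bbb (FBgn0051354), Hsp70Bc (FBgn0013279) and Hsp68 (FBgn0001230). They are 7 of the 17697 genes in the deposited count matrix, and all 7 passed the filter on low counts in larvae, females and males. In the BDGP6.54 annotation each is a protein-coding gene of 1 exon on chromosome arm 3R, so each gene body is a single exon with its 5′ and 3′ UTR. Hsp70Aa (chr3R:11954163-11956544, minus strand) and Hsp70Ab (chr3R:11958535-11960909, plus strand) lie 1990 bases apart, and their coding lengths are both 1929 bases. The B copies lie 504.5 kb further along the arm, at chr3R:12465453-12467776 (Hsp70Ba, minus strand), chr3R:12502510-12504856 (Hsp70Bbb), chr3R:12505793-12508139 (Hsp70Bb) and chr3R:12509076-12511461 (Hsp70Bc, these 3 on the plus strand), each with a coding length of 1926 bases. Hsp68 (chr3R:24055080-24057310, minus strand) stands far from both loci and has a coding length of 1908 bases.

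Hsp70 proteins are ATP-driven chaperones that hold and refold unfolded proteins together with J-domain partners. In flies the heat-inducible copies are transcribed when heat or other proteotoxic stress turns the heat shock factor Hsf into a trimer that binds their promoters, and the cognate Hsc70 genes supply chaperone in unstressed cells. Hsp68 encodes a closely related heat-inducible member of the same family.

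The series holds 80 libraries in 20 groups of 4, which the design text calls biological replicates, and the labels name no strain. Control animals were held at 19 °C, and treated animals went through a fluctuation of ± 8 °C around 19 °C. Both were collected at the high and at the low temperature point of the cycle. Larvae (16 libraries) were collected after 6 cycles of a treatment lasting 7 days, and adult females (32 libraries) and males (32 libraries) after 6 or 12 cycles of a treatment lasting 13 days, with adults moved to new vials every second day.

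Total counts were 87.1 M to 130.7 M per library. Of the 183786 values between 1 and 24, 36.8% were multiples of 4, so a sequenced fragment appears to be worth about 4 deposited counts. The labels of sex and stage were checked with marker lists, given here as CPM, counts scaled to the library total. The 5 female genes, for yolk and eggshell, summed to between 6921 and 29560 CPM in females and to at most 15.2 CPM in larvae. The 5 male genes summed to between 1608 and 3097 CPM in males, and the 6 larval genes to between 34435 and 46237 CPM in larvae. Of these, Lcp65Ae stood at 25.0 to 50.9 CPM in constant larvae of the high point and 1.19 to 4.92 CPM in fluctuating ones. In constant larvae of the low point it was at 2.46 to 5.07 CPM. Sgs5 at the low point stood at 3052 to 3470 CPM at constant temperature and 1783 to 2830 CPM under fluctuation. All other comparisons of larval genes between regimes in larvae overlapped. The part of these differences in the larval Hsp70 results was not tested. All other male libraries had at most 159.6 CPM of the female list, but replicate 2 of the males at constant temperature, low point, 6 cycles, had 14284 CPM. That library also stood apart in Hsp70: the Hsp70Aa and Hsp70Ab rows summed to 14.2 CPM, against 5.42 to 6.34 CPM in the other libraries of its group, while the 4 B copies, at 7.85 CPM, lay within the range of 6.05 to 7.86 CPM of the others. For several results that rest on this library, values without it are also given. The others, such as the male constant low-point medians, include it. From here on, levels are CPM scaled by the TMM factors of all 80 libraries. In whole animals, fewer cells of a type and less RNA per cell cannot be told apart.

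The copies within each locus are near-identical, and reads may have been shared out between them, so ratios between copies of a locus are uncertain and the sum of the 6 rows (the Hsp70 sum) is reported beside each copy. For the same reason the copies are not independent of each other, and counts of members called below are not counts of separate observations. Over the 80 libraries Hsp70Aa held 0.839 to 1 times the counts of Hsp70Ab, with a median of 0.930. Relative to Hsp70Bb, the median was 0.732 for Hsp70Bbb, 0.989 for Hsp70Bc and 0.217 for Hsp70Ba, which had the lowest level per kb of the 6 copies in all 20 groups. Hsp70Ab overlaps CG3281 on the other strand by 27 bases, and Hsp68 overlaps lncRNA:CR44097 and CG6000 by 13 bases. The labels state no strand for the counts, so reads in these short overlaps cannot be assigned.

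At constant temperature the Hsp70 sum was low in larvae and males and higher in females. Its median was 23.1 CPM in larvae at the high point and 15.6 CPM at the low point, 95.6 and 106.6 CPM in females, and 16.6 and 13.6 CPM in males. Hsp68 had another order, with medians of 139.5 and 93.1 CPM in larvae, 42.5 and 36.5 CPM in males, and 3.85 and 3.92 CPM in females. Per kb of exon, Hsp68 exceeded each Hsp70 copy in all 4 constant groups of males and in both of larvae, while in females Hsp70Aa and Hsp70Ab each exceeded Hsp68.

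**Figure D1:**
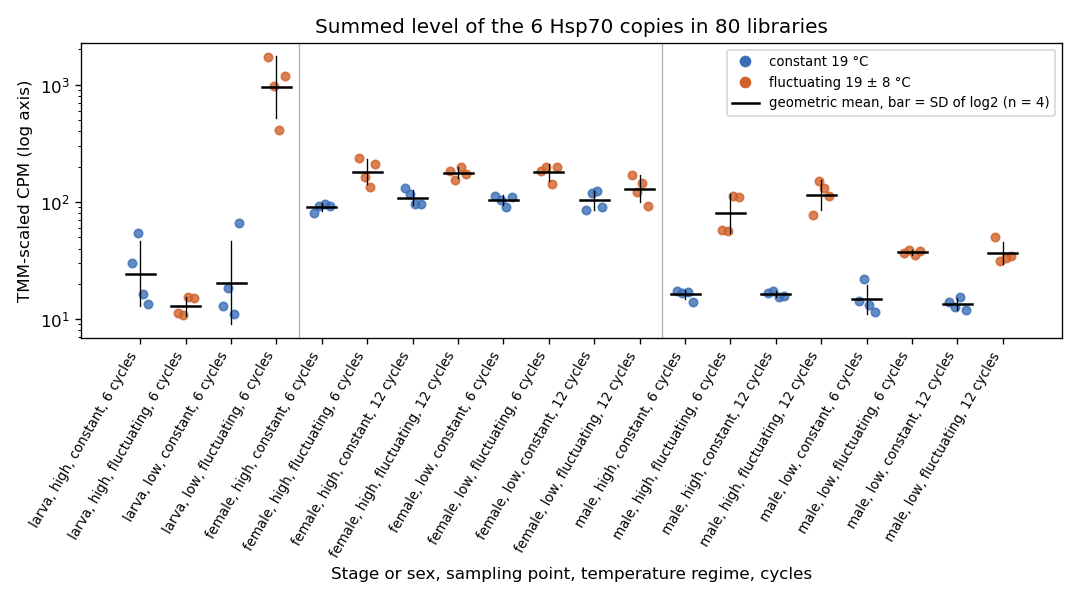
Summed TMM-scaled CPM of the 6 Hsp70 copies on a log axis, with a point for each of the 80 libraries, grouped by stage or sex, sampling point, regime and cycles. Horizontal lines are geometric means and bars the SD of log2 values (n = 4); the fluctuating larvae of the low point, at 407 to 1715 CPM, lie above all other libraries.

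In larvae the Hsp70 copies rose steeply under fluctuation at the low point. The Hsp70 sum was 1715, 978, 407 and 1176 CPM in the 4 fluctuating libraries and 12.9, 18.3, 11.0 and 66.4 CPM in the 4 constant ones. The groups did not overlap, and replicate 4 was the high one among the constant libraries. The log2 fold change was 5.26 (SE 0.67, adjusted p = 0.00156), a 38.2-fold difference, where adjusted p-values are Benjamini-Hochberg values over all genes of the edgeR quasi-likelihood fit and the threshold is 0.05. Without constant replicate 4 the log2 fold change was 6.20 (adjusted p = 2.95e-04). Each copy passed the test. Hsp70Ab went from 2.47 to 19.5 CPM in the constant libraries to 142 to 601 CPM in the fluctuating ones (log2 fold change 5.52, SE 0.75, adjusted p = 0.00224). The least abundant copy, Hsp70Ba, went from 0.357 to 1.67 CPM to 9.89 to 46.3 CPM (5.11, SE 0.53, adjusted p = 2.79e-04). The other copies had log2 fold changes of 5.48 (Hsp70Aa), 5.07 (Hsp70Bb), 4.96 (Hsp70Bbb) and 4.60 (Hsp70Bc). With Hsp68, described below, 7 of 7 members were called higher in a comparison that called 1.11% of 14634 genes, and their median log2 fold change was 5.07, against 0.0051 for all genes.

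At the high point larvae showed the opposite sign without passing the test. The Hsp70 sum was 11.2, 10.8, 15.3 and 15.1 CPM under fluctuation and 29.8, 54.5, 16.5 and 13.4 CPM at constant temperature. The lowest constant library lay inside the fluctuating range, and the spread among the constant libraries was wide. The log2 fold change of the sum was -1.15 (SE 0.57, adjusted p = 0.258), and 0 of 7 members were called by edgeR, which called 4.37% of genes (639). DESeq2 also called 0 of 7 members, and it called 1611 genes. At an unadjusted p under 0.05, 3 of 7 were lower: Hsp70Ba (-1.15), Hsp70Bb (-1.13) and Hsp70Bbb (-1.29), whose groups did not overlap. The share of all genes at that unadjusted p, or without overlap, is not given here, so these 3 are not read as a result.

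In males the Hsp70 sum was higher under fluctuation at both points, and all 6 copies were higher at the high point. At the high point the sum ran from 56.9 to 150.0 CPM over the 8 fluctuating libraries (median 111.0) and from 14.1 to 17.5 CPM over the 8 constant ones (median 16.6). No library overlapped between the groups. The log2 fold change was 2.63 (SE 0.16, adjusted p = 3.29e-12), a 6.20-fold difference. Hsp70Aa and Hsp70Ab rose by 2.92 (SE 0.20) and 2.90 (SE 0.19) on the log2 scale, and the B copies by 2.41 (Hsp70Ba), 2.45 (Hsp70Bb), 2.24 (Hsp70Bbb) and 2.15 (Hsp70Bc). All 6 copies passed and Hsp68 did not, so 6 of 7 members were called higher in a comparison that called 31.9% of genes (37.9% without the library with female transcripts). The larval marker list moved the same way, at 276 to 2053 CPM (median 1165) under fluctuation and 57.9 to 851 CPM (median 208) at constant temperature. Nearly all of it was the larval serum protein gene Lsp2, at 271 to 2048 CPM and 53.9 to 830 CPM, while the glue genes Sgs3 and Sgs4 were each at 0 in 7 of the 8 fluctuating libraries. The part of this movement in the Hsp70 result was not tested.

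At the low point the male A copies stayed well above the constant level while the B copies were near it. The Hsp70A pair ran from 22.4 to 39.9 CPM (median 26.3) under fluctuation and from 5.16 to 14.2 CPM (median 6.24) at constant temperature, and the highest constant value is that of the library with female transcripts. The 4 B copies together ran from 8.74 to 11.3 CPM (median 9.55) under fluctuation and from 6.05 to 8.28 CPM (median 7.40) at constant temperature. Neither pair of ranges overlapped. Log2 fold changes were 1.94 (Hsp70Aa, SE 0.19, adjusted p = 2.98e-08), 1.96 (Hsp70Ab, SE 0.19) and 0.84 (Hsp70Ba, SE 0.23, adjusted p = 0.00819). Hsp70Ba alone ran from 0.360 to 1.12 CPM under fluctuation and from 0.263 to 0.514 CPM at constant temperature, with overlap. Its deposited counts in males were as low as 30, where a fragment appears to be worth about 4. Hsp70Bb, at 0.40 (SE 0.15), passed narrowly with an adjusted p of 0.0468, and it lost the call in 11 of the 32 fits that each left out 1 male library (adjusted p from 0.0109 to 0.0836). Hsp70Bbb had 0.35 (adjusted p = 0.103) and Hsp70Bc 0.30 (adjusted p = 0.147). In all, 4 of 7 members were called higher where 30.5% of genes were called. That share was 27.3% without the library with female transcripts, while the count of 4 was made with it. Without the library with female transcripts the Hsp70Aa value was 2.16 and the Hsp70Ab value 2.17 (both with adjusted p = 5.87e-10), and the sum moved from 1.35 (SE 0.15) to 1.47 (SE 0.15).

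In females, where the sum was already high at constant temperature, it was higher again under fluctuation at both points. At the high point it ran from 135.0 to 235 CPM (median 179) under fluctuation and from 80.5 to 130.9 CPM (median 95.6) at constant temperature, without overlap. The log2 fold change was 0.87 (SE 0.11, adjusted p = 2.39e-06), a 1.83-fold difference. The B copies and Hsp68 rose more than the A copies: 2.05 (Hsp70Bb, SE 0.20), 1.89 (Hsp70Bbb, SE 0.18), 1.76 (Hsp70Bc, SE 0.18) and 1.38 (Hsp70Ba, SE 0.25) on the log2 scale, against 0.73 (Hsp70Aa, SE 0.11) and 0.76 (Hsp70Ab, SE 0.11). All 7 members passed, in a comparison that called 30.6% of genes. The 4 B copies together stood at 16.8 to 40.8 CPM under fluctuation and 5.02 to 9.03 CPM at constant temperature. The 5 yolk and eggshell genes, none of them at 0, moved the same way, summing to 14039 to 29560 CPM (median 21393) under fluctuation and 11588 to 17171 CPM (median 14683) at constant temperature, and their part in the Hsp70 result was not tested.

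At the low point the female sum ran from 91.8 to 198 CPM (median 158) under fluctuation and from 85.8 to 124 CPM (median 107) at constant temperature. These ranges overlapped, and the log2 fold change was 0.55 (SE 0.11, adjusted p = 8.11e-04). Hsp70Aa (0.55), Hsp70Ab (0.56), Hsp70Bb (0.60, adjusted p = 0.0280) and Hsp70Bc (0.60, adjusted p = 0.0151) passed. Hsp70Bb lost the call in 6 of the 32 fits that each left out 1 female library (adjusted p up to 0.0775). Hsp70Bbb (0.47, adjusted p = 0.0529) and Hsp70Ba (0.35, adjusted p = 0.348) did not pass, and DESeq2 called Hsp70Bbb (0.48, adjusted p = 0.0329). With Hsp68, 5 of 7 members were called higher where 22.9% of genes were called. The yolk and eggshell genes summed to 8014 to 26721 CPM (median 15983) under fluctuation and 6921 to 19718 CPM (median 16674) at constant temperature.

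**Figure D2:**
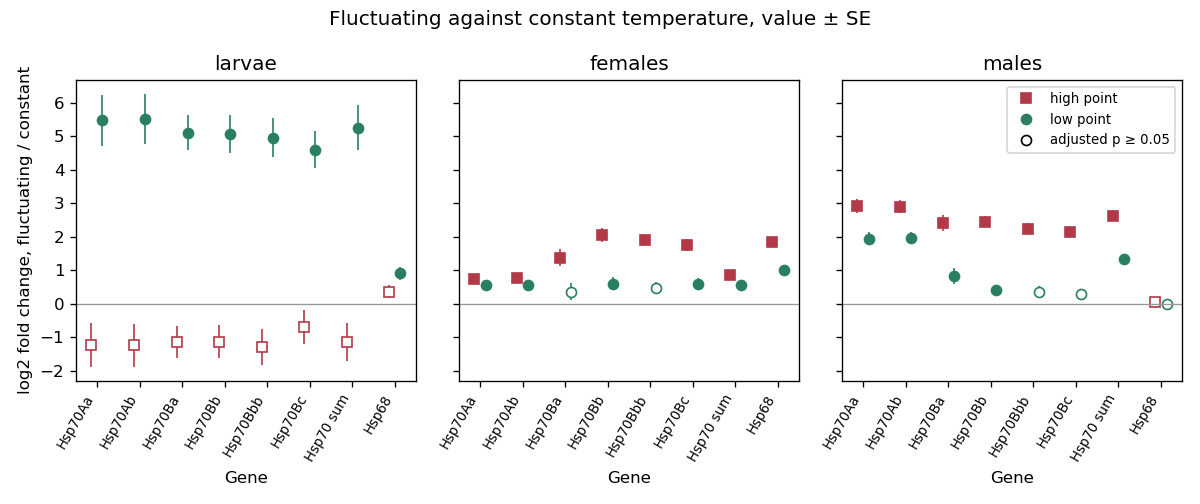
Log2 fold change of fluctuating against constant temperature for each Hsp70 copy, the Hsp70 sum and Hsp68 in larvae (n = 4 against 4), females and males (n = 8 against 8), with squares for the high point, circles for the low point and bars for the SE. Open symbols did not pass the threshold of 0.05; larval copies lie at 4.60 or above at the low point and below 0 at the high point.

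The A and B copies lie at separate loci, and the A share of the Hsp70 sum was compared between regimes with a two-sided exact permutation test over libraries, adjusted over 6 comparisons. In females the A share at the high point was 82.6 to 89.6% under fluctuation (mean 85.1, SD 2.69, n = 8) and 90.4 to 93.8% at constant temperature (mean 92.4, SD 1.39). It was lower under fluctuation by 7.25 percentage points, written as a difference of -7.25 (exact p = 1.55e-04, adjusted 4.66e-04), without overlap. The female low point gave -0.082 percentage points (exact permutation p = 0.883).

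In males the A share was higher under fluctuation. At the low point it was 70.6 to 79.5% (mean 73.7, SD 3.08, n = 8) against 43.1 to 64.4% at constant temperature (mean 47.8, SD 6.81), a difference of 25.8 percentage points (exact permutation p = 1.55e-04, adjusted 4.66e-04). The constant library with female transcripts is the one at 64.4%, and the other 7 lay between 43.1 and 47.3%. Without it the difference was 28.2 percentage points (exact permutation p = 3.11e-04). At the high point the A share was 47.9 to 67.7% against 43.2 to 54.7%, with overlap, a difference of 10.5 percentage points (exact permutation p = 0.00389, adjusted 0.00777). Within cycle numbers this difference was 15.4 percentage points after 6 cycles (exact permutation p = 0.0286) and 5.58 after 12 cycles (exact permutation p = 0.343).

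In larvae at the low point the A share was 61.2 to 67.4% under fluctuation and 42.8 to 57.8% at constant temperature, 13.4 percentage points higher without overlap (exact permutation p = 0.0286, adjusted 0.0429, n = 4 against 4). At the larval high point the difference was 0.13 percentage points (exact permutation p = 1). The values of 0.0286 for 4 against 4 and 1.55e-04 for 8 against 8 are the smallest these designs can give. Reads shared between the loci would move both shares, and their number was not tested.

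**Figure D3:**
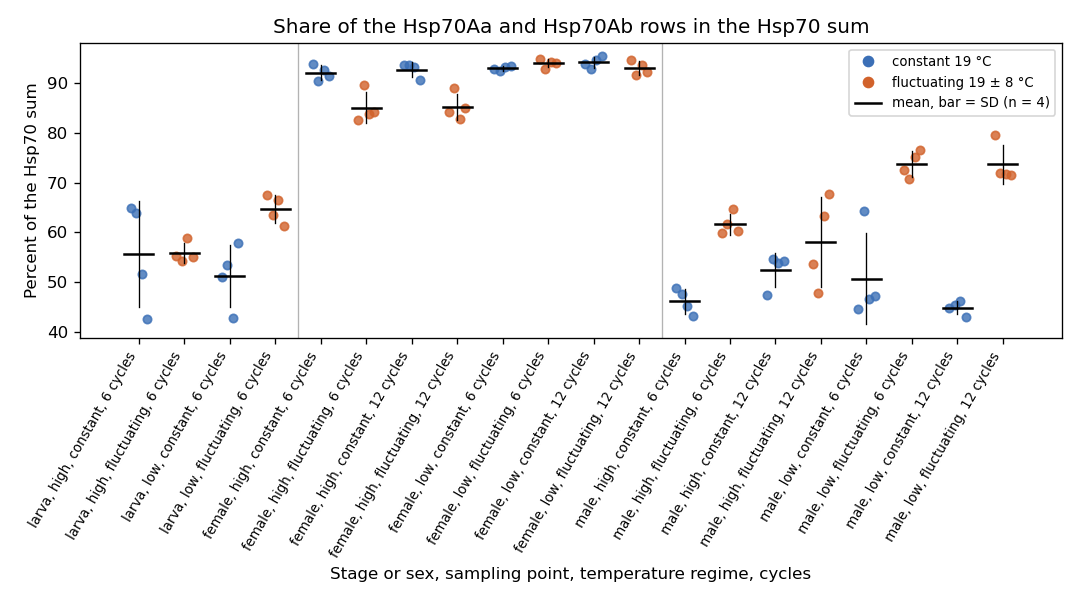
Percent of the Hsp70 sum held by the Hsp70Aa and Hsp70Ab rows in each of the 80 libraries, by stage or sex, sampling point, regime and cycles. Lines are means and bars the SD (n = 4); females lie between 82.6 and 95.3%, and the male library at 64.4% among constant libraries of the low point is the one with female transcripts.

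Hsp68 followed fluctuation in females and, less firmly, in larvae, and gave no call in males. In females at the high point it ran from 10.04 to 17.3 CPM (median 13.7) under fluctuation and from 2.85 to 4.51 CPM (median 3.85) at constant temperature, a log2 fold change of 1.83 (SE 0.14, adjusted p = 3.48e-10). At the female low point it ran from 6.52 to 9.83 CPM (median 8.15) against 2.51 to 5.56 CPM (median 3.92), a log2 fold change of 0.99996 (SE 0.14, adjusted p = 7.38e-06). Neither comparison overlapped. In larvae at the low point Hsp68 was at 205, 173, 159.6 and 200.2 CPM under fluctuation and at 65.7, 124, 95.0 and 91.2 CPM at constant temperature. These groups did not overlap either, and the log2 fold change was 0.91 (SE 0.19, adjusted p = 0.0344). That call was lost, with adjusted p up to 0.103, when any fluctuating low-point larval library or constant low-point replicate 1, 3 or 4 was left out. At the larval high point it was 0.36 (SE 0.19, adjusted p = 0.299). In males the log2 fold change was 0.07 (SE 0.06, adjusted p = 0.414) at the high point and -0.0012 (SE 0.06, adjusted p = 0.992) at the low point, with levels of 30.7 to 49.7 CPM over all 32 libraries.

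**Figure D4:**
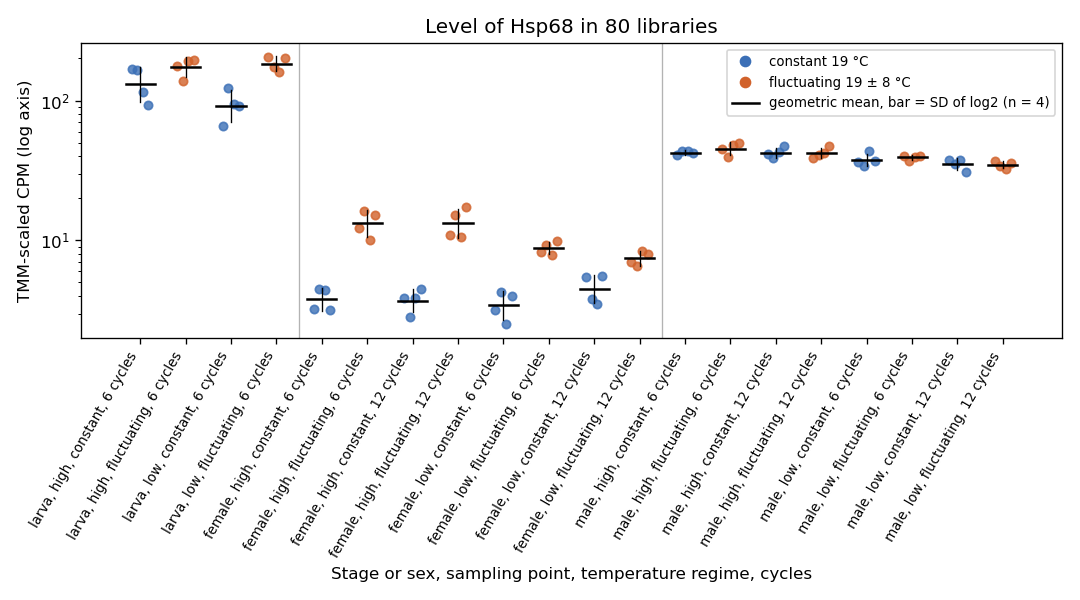
TMM-scaled CPM of Hsp68 on a log axis in each of the 80 libraries, by stage or sex, sampling point, regime and cycles. Lines are geometric means and bars the SD of log2 values (n = 4); male libraries stay between 30.7 and 49.7 CPM, and fluctuating females of the high point, at 10.04 to 17.3 CPM, lie above constant females, at 2.51 to 5.56 CPM.

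The high and low points were also compared within each regime. At constant temperature, where the temperature was 19 °C at both points, 0 of 7 members were called in larvae (0.417% of genes called) and 0 of 7 in females (21.1% called). In females the log2 difference of the sum was -0.01 (SE 0.11, adjusted p = 0.958), and in larvae it was 0.09 (SE 0.56, adjusted p = 0.973). DESeq2 called 0 members in both, and in larvae it called 1392 genes. At an unadjusted p under 0.05 edgeR gave 1 in larvae, Hsp68 (0.53, SE 0.19, adjusted p = 0.133), and 0 in females. The share of all genes at that unadjusted p is not given here. In males 1 of 7 was called (9.64% called): Hsp68 was higher at the high point by 0.22 (SE 0.06, adjusted p = 0.0139), or 0.20 (adjusted p = 0.0294) without the library with female transcripts.

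Under fluctuation the order of the points, taken as labelled, was opposite in larvae and adults. The labels of the sampling points were not checked with markers. In larvae 6 of 7 members were lower at the high point (4.97% of genes called), with the sum at -6.31 (SE 0.70, adjusted p = 2.79e-04) and Hsp68 at -0.03 (SE 0.19, adjusted p = 0.954). In males 7 of 7 were higher at the high point (30.5% called), with the sum at 1.47 (SE 0.15, adjusted p = 7.75e-09). In females 5 of 7 were higher at the high point (25.5% called): the 4 B copies, at 1.25 to 1.68, and Hsp68, at 0.80 (SE 0.14). The female A copies, at 0.16 and 0.17, did not pass. The female sum, at 0.31, passed with an adjusted p of 0.0482, and the call was lost in 16 of the 32 fits that each left out 1 female library.

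The treatment effect itself differed between points, as the effect at the high point minus that at the low point. These differences use the same libraries as the single comparisons. In larvae 6 of 7 members had a lower effect at the high point (1.69% of genes called), with the sum at -6.40 (SE 0.86, adjusted p = 0.00334). In males 6 of 7 had a higher one (23% called), with the sum at 1.29 (SE 0.21, adjusted p = 4.03e-05), or 1.16 without the library with female transcripts. In females 5 of 7 had a higher one (20% called), namely the 4 B copies and Hsp68 (0.83, SE 0.19, adjusted p = 0.00285). Hsp70Ba, at 1.02 (adjusted p = 0.0411), lost that call in 15 of the 32 fits that each left out 1 library. The female sum, at 0.32 (SE 0.16, adjusted p = 0.174), did not pass.

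In adults the effects after 6 and after 12 cycles were compared, where the cycle number, the time under treatment and the age of the adults go together. The 6-cycle and 12-cycle libraries are also separate sets of replicates, so these cannot be told apart. At the high point all 7 members were called in females after 6 cycles (30.5% of genes called) and after 12 cycles (12% called), and 6 of 7 in males after 6 cycles (17.4% called) and after 12 cycles (17.5% called). At the low point 3 of 7 were called in females after 6 cycles (26.4% called) and 1 of 7, Hsp68, after 12 cycles (13.4% called), where DESeq2 also called Hsp70Bc (0.70, adjusted p = 0.0346). In males Hsp70Aa and Hsp70Ab were called at the low point after 6 cycles (29.8% called) and after 12 cycles (9.3% called). Hsp70Ba, at 1.03 (adjusted p = 0.0510) after 12 cycles, was also called by DESeq2 (1.04, adjusted p = 0.0325) and, without the library with female transcripts, by edgeR (1.02, adjusted p = 0.0435). Without that library 21.1% of genes were called after 6 cycles and 14.6% after 12 cycles. The 6-cycle value of Hsp70Aa then moved from 1.71 to 2.17, and that of the male sum from 1.24 to 1.49. The female low-point sum had a log2 fold change of 0.72 (SE 0.16, adjusted p = 0.00145) after 6 cycles and 0.39 (SE 0.16, adjusted p = 0.111) after 12 cycles, and without replicate 8 of the fluctuating 12-cycle females the latter was 0.52 (adjusted p = 0.0351).

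The difference between the effects after 12 and 6 cycles gave 0 calls of 7 in each of the 4 comparisons, in which 8.6% (female, high point), 21% (female, low point), 0.0568% (male, high point) and 4.75% (male, low point) of genes were called. DESeq2 also called 0 in each, with no adjusted p for Hsp70Ba in males at the low point. In males at the high point it called 16 genes. At an unadjusted p under 0.05 edgeR gave 3 in males at the high point (Hsp70Bb, Hsp70Bbb and Hsp70Bc) and 0 in the others. The share of all genes at that unadjusted p is not given here. In males at the high point the 12-cycle minus 6-cycle difference was 0.45 (SE 0.29, adjusted p = 1) for the sum and 0.86 (SE 0.30, adjusted p = 0.892) for Hsp70Bb.

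Across stages and sexes, levels at constant temperature were compared in a fit of all 80 libraries. In that fit larvae and adults share an estimate of spread for each gene. Here 92.7% of genes differed between males and females, and the median of all genes was 0.769 on the log2 scale (male minus female), so values are read against that median. The Hsp70 sum was at -2.73 (SE 0.17, adjusted p = 4.85e-23), Hsp70Aa at -3.67 (SE 0.21), Hsp70Ab at -3.65 (SE 0.20) and Hsp70Ba at -0.80 (SE 0.20). Hsp70Bb, Hsp70Bbb and Hsp70Bc, at 0.19, 0.26 and 0.17, did not pass the test against 0. Against 0, all 3 were called higher in males by DESeq2 (0.60, 0.67 and 0.57) and with RLE factors, which moved the median of all genes to 1.17. With TMM and with RLE factors these 3 copies lay below the median of all genes. Hsp68 was at 3.33 (SE 0.09, adjusted p = 3.07e-43), above the median under both scalings. In the edgeR test against 0, 3 of 7 members were called lower and 1 higher in males. Without the library with female transcripts the sum was at -2.79. Larvae against the adult mean gave 5 of 7 members higher and 2 lower (79% of genes called): Hsp68 at 3.18 (SE 0.08), the B copies at 0.62 to 0.75, and the A copies at -0.73 and -0.75. That mean averages sexes that differ widely in the A copies. Constant Hsp70Aa medians at the high and low point were 6.85 and 4.02 CPM in larvae. They were 42.6 and 47.9 CPM in females and 3.96 and 2.96 CPM in males, so larvae lay below females and not below males. The 4 B copies together stood at 19.7 CPM in replicate 2 of the constant larvae of the high point. In replicate 4 of the low point they stood at 28.02 CPM, and the other constant larval libraries lay between 6.27 and 10.49 CPM. Constant medians of this set were 9.22 and 7.43 CPM in larvae and ran from 6.87 to 8.37 CPM in adults. How far the higher B copies in larvae rest on these 2 libraries was not tested.

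The treatment effects also differed between stages and sexes. At the high point the male effect exceeded the female one for Hsp70Aa (2.17, SE 0.38, adjusted p = 6.82e-05) and Hsp70Ab (2.12, SE 0.37) and was below it for Hsp68 (-1.78, SE 0.17, adjusted p = 8.20e-12), where 8.23% of genes were called. The B copies, at 0.33 to 1.01, did not pass, and DESeq2 called Hsp70Ba (1.05, adjusted p = 0.0474). At the low point the same 3 genes were called, with 7.5% of genes called: Hsp70Aa at 1.39 (adjusted p = 0.0119), Hsp70Ab at 1.41 (adjusted p = 0.0101) and Hsp68 at -1.002 (SE 0.17). Without the library with female transcripts the A copies were at 1.62 (Hsp70Aa) and 1.61 (Hsp70Ab).

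The larval effect was below the female one at the high point for 7 of 7 members (12.7% of genes called; sum -1.99, SE 0.41, adjusted p = 4.18e-04) and above it at the low point for 6 of 7 (7.76% called; sum 4.73, SE 0.43, adjusted p = 9.67e-13). It was below the male one at the high point for 6 of 7 (16.2% called; sum -3.74, SE 0.42, adjusted p = 1.12e-09) and above it at the low point for 7 of 7 (14.2% called; sum 3.93, SE 0.42, adjusted p = 1.07e-10). In the last of these the median of all genes was 0.152, and the sum was at 3.81 without the library with female transcripts. These differences come from the fit of all 80 libraries, in which larvae and adults share an estimate of spread for each gene. In the fit of larvae alone, the larval effect on the sum had a larger SE than these differences at the high and the low point. The SE and adjusted p-values here may therefore understate the larval spread.

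Ordered by mean log2 level, the fluctuating larvae of the low point held the highest Hsp70 sum, 2.39 above the next group. The 3 groups that followed, fluctuating females of the high point after 6 cycles, of the low point after 6 cycles and of the high point after 12 cycles, did not differ beyond their SD. The lowest 9 groups, from the fluctuating males of the low point after 6 cycles to the fluctuating larvae of the high point, did not differ between neighbours beyond their SD. For Hsp68 the 4 larval groups were highest, the 8 male groups followed without any gap beyond the SD between neighbours, and the 8 female groups were lowest, with all 4 fluctuating female groups above all 4 constant ones.

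Other heat shock genes were read from a list of 25, all of which were tested: Hsf, co-chaperones, small heat shock proteins, Hsp83, the cognate Hsc70 genes, Hsp60A and lncRNA:Hsromega. In larvae at the low point 7 of 25 were higher and 0 lower, where 1.11% of all genes were called, with a list median of 0.32. The J-domain co-chaperone DnaJ-1 went from 102.5 ± 18.8 to 558.6 ± 68.4 CPM (SD, n = 4, log2 fold change 2.39, adjusted p = 9.48e-06), and the Hsp90 homologue Hsp83 from 1138 ± 93.5 to 2808 ± 213 CPM (1.24, adjusted p = 1.32e-05). The J-domain gene Droj2 (0.59) and the Hsp70/Hsp90 co-chaperone Stip1 (0.57) were also higher. At the larval high point, where 4.37% of all genes were called, 2 were higher and 2 lower: Hsp23, a small heat shock protein, at 0.99 (adjusted p = 0.0418), Cdc37, a co-chaperone of Hsp90 for kinases, at 0.25, Hsp83 at -0.85 (adjusted p = 4.24e-04) and Hsc70-3, the endoplasmic reticulum cognate, at -0.43.

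In females 13 of 25 were higher and 3 lower at the high point (list median 0.17, 30.6% of all genes called), and 5 higher and 9 lower at the low point (list median -0.07, 22.9% called). At the female high point the small heat shock proteins Hsp22 (1.45, adjusted p = 0.0190), l(2)efl (1.08, adjusted p = 3.33e-09) and Hsp23 (1.001) and the co-chaperone DnaJ-1 (0.64, adjusted p = 4.28e-14) had the largest changes. At the female low point these were Hsp22 (1.79), Hsp23 (0.80), lncRNA:Hsromega (0.74), a stress-induced nuclear RNA, and DnaJ-1 (0.49).

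In males 13 of 25 were higher and 5 lower at the high point (list median 0.16, 31.9% of all genes called), and 4 higher and 11 lower at the low point (list median -0.09, 30.5% called). Without the library with female transcripts these counts were 15 and 5 at the high point (37.9% called) and 4 and 11 at the low point (27.3% called). At the male high point Hsp22 (1.999, adjusted p = 2.66e-04), Stip1 (0.98), the co-chaperone gene mora (0.81) and l(2)efl (0.81) changed most. At the male low point these were Hsp22 (1.32, adjusted p = 0.0106), Stip1 (-0.77), Hsp83 (-0.76) and Hsc70-3 (-0.75). At constant temperature the 8 male libraries of the low point spread widely for the last 3, with Hsp83 at 1002 ± 352 CPM (SD). Without the library with female transcripts the values were -0.55 (Stip1), -0.56 (Hsp83) and -0.60 (Hsc70-3), and all 3 still passed, but Hsc70-4 (-0.55) then changed more than Stip1 and took its place among the 4 largest changes.

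**Figure D5:**
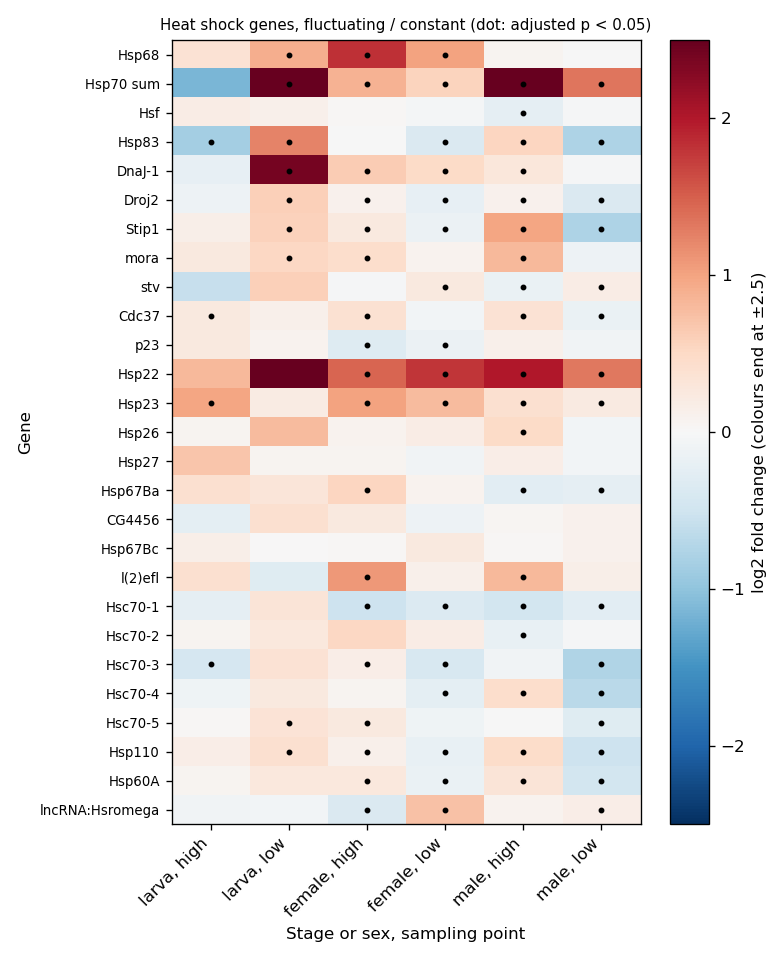
Log2 fold change of fluctuating against constant temperature for the Hsp70 sum, Hsp68 and 25 other heat shock genes (rows) at each sampling point in larvae, females and males (columns), as colour from blue (lower) to red (higher). Colours end at ± 2.5, and a dot marks an adjusted p below 0.05; in larvae of the low point DnaJ-1 (2.39) and Hsp83 (1.24) are marked beside the Hsp70 sum (5.26).

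The genes whose mean log2 level over the 20 groups was most like the Hsp70 sum were DnaJ-1 (Pearson r = 0.915), CG8135 (0.815), FBgn0010812 (0.805), which has no symbol in the tables used, CG7130 (0.788) and Rb97D (0.778). Those most like Hsp68 were HLH54F (0.974), Doc3 (0.972), CG32280 (0.965), sage (0.965) and wbl (0.964). These correlations describe 20 group means that share stage and sex, and carry no test. HLH54F and Doc3 were at most 1.13 and 4.26 CPM in any group.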

How the data were processed

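RNA was made from whole larvae, females and males and enriched with oligo(dT) before random-primed cDNA synthesis, per the labels' protocols. Reads went through FastQC, Trimmomatic, HISAT2 and StringTie with the BDGP6 genome, per the submitters' processing notes. No source used here gives versions, strand settings or the handling of reads that match several copies. What the authors deposited is an estimated count for each gene in each library, without scaling for depth, which was rounded to whole numbers. Of 17697 identifiers, 17559 matched the BDGP6.54 annotation, from which coordinates are 1-based, and 138 did not.

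Counts were tested with edgeR 4.0.16 (R 4.3.3, limma 3.58.1) by its quasi-likelihood F-test with TMM factors (0.748 to 1.27), after a filter on low counts (filterByExpr, minimum count 10). Larvae, females and males were fitted separately (14634, 13471 and 15847 genes), and all 80 libraries together (16306 genes) for comparisons across them. Adult effects average 6 and 12 cycles. The Hsp70 sum was tested in a second fit in which the 6 rows were replaced by their sum. Adjusted p-values are Benjamini-Hochberg over all genes tested, with a threshold of 0.05. The script was tested on simulated data. Shares were tested with exact permutation tests (SciPy 1.17.1). DESeq2 1.42.0, RLE factors, no filter, counts divided by 4, a robust fit, only the compared libraries, a replicate block and leaving out each library were tried as alternatives, and 2 more were chosen after seeing the data: leaving out the male library with female transcripts, and taking 6 or 12 cycles alone for the shares.

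Replicates are separate samples per the design text. Within groups, at most 2.48% of nonzero values were equal between any of 120 library pairs. p-values measure the spread between these samples. The genes followed, the list of other heat shock genes and the markers were chosen with earlier results of these data known. Named genes are the 7 followed, at most the 4 called genes of the heat shock list with the largest change per comparison, and the 5 genes most like each pattern (Pearson r over group means of log2 of CPM + 0.5). No sequence is printed, and promoter motifs were not analysed here.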

Additional observations from a re-analysis of the deposited data

Results flagged for a closer look

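In 6 of 60 groups of 4 tested (20 groups for each of the Hsp70 sum, Hsp68 and the A share), 1 library stood apart from the others by a gap above Dixon's 95% critical share of the group's range. Chance gives about 1 in 20 groups. For the Hsp70 sum these were replicate 4 of the constant larvae of the low point, at 66.4 CPM, and replicate 5 of the fluctuating males of the low point after 12 cycles, at 50.2 CPM. The latter also stood apart in the A share, at 79.5%. For the A share the others were replicate 8 of the constant females of the high point after 12 cycles, at 90.5%, replicate 5 of the constant males of the high point after 12 cycles, at 47.5%, and replicate 2 of the constant males of the low point after 6 cycles, at 64.4%, which is the library with female transcripts.

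Treatment effects that differed between sampling points, as the high-point effect minus the low-point effect in log2 units, were those of the Hsp70 sum in larvae (-6.40) and males (1.29) and of Hsp68 in females (0.83). Between males and females, the effect differed at the high point for Hsp68 (-1.78) and the Hsp70 sum (1.74), and at the low point for Hsp68 (-1.002). Between larvae and females it differed at the high point for Hsp68 (-1.45) and the sum (-1.99), and at the low point for the sum (4.73). Between larvae and males it differed for the sum at the high point (-3.74) and the low point (3.93), and for Hsp68 at the low point (0.96). All of these passed an adjusted p of 0.05 for the difference itself in the edgeR fit. Those with larvae against adults come from the fit in which larvae and adults share an estimate of spread, which may understate the larval spread.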

How the results depend on the processing

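Most log2 fold changes kept direction and call: 266 of 280 with the compared libraries alone and, in settings that keep all libraries, 274 with counts divided by 4, 271 with DESeq2, 275 with no filter, 272 with RLE factors, 279 with the robust fit and 259 of 264 with a replicate block. Of the 6272 values from fits that each left out 1 library, 6051 did so, and no called value changed sign in any of these settings. The cause of the changes that follow was not tested. The female high-against-low sum under fluctuation (0.31) lost its call with RLE factors (0.30), no filter (0.30), counts divided by 4 (0.30), the robust fit (0.31) and the compared libraries alone (0.29). The male-minus-female sum at the low point gained a call with the compared libraries alone (0.81). Values near 0 that changed sign were the larval constant high-against-low Hsp70Bbb (-0.017, counts divided by 4), the female low-point 12-against-6-cycle Hsp70Bb (0.00024 with RLE factors, 0.0086 with counts divided by 4, 0.017 with the block), male low-point Hsp68 (0.012 with RLE factors, 0.012 with DESeq2, 0.015 with no filter, 0.013 with counts divided by 4, 0.0070 alone), male high-point 12-cycle Hsp68 (0.0086, 0.010, 0.017 and 0.0011 with RLE factors, DESeq2, no filter and counts divided by 4) and male low-point 12-against-6-cycle Hsp70Bc (-0.020 with no filter, -0.0045 alone). The female low-point A share difference was 0.995 with 6 cycles alone, and the male high-point one 5.58 with 12 cycles alone.

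The replicate numbers were not taken to pair the samples, since their meaning across groups is not given. Not every same-numbered pair deviated together, but some larval pairs did, so whether larvae were paired by number cannot be told from this. Over 24 such pairs each, correlations ran from -0.396 to 0.71 in larvae (mean 0.034, 9 over 0.1), and their means were -0.0061 and -0.066 in females and 0.027 and 0.015 in males (6 and 12 cycles), with 0 to 2 over 0.1. Same-numbered female and male libraries of a condition had means of 0.012 and -0.019 (16 pairs each, 1 and 0 over 0.1). With the replicate block the larval low-point Hsp68 was 0.91 and lost its call.

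When each library was left out in turn, larval low-point Hsp68 ran from 0.78 to 1.07 (call lost in 7 of 16 fits), the female high-against-low sum under fluctuation from 0.24 to 0.39 (lost in 16 of 32) and the female low-point 12-cycle sum from 0.23 to 0.52 (gained in 1). The larval low-point sum ran from 4.95 to 6.20 and kept its call. Larval constant high-against-low values crossed 0, from -0.39 to 1.28 (Hsp70Aa), -0.40 to 1.30 (Hsp70Ab), -0.070 to 0.81 (Hsp70Ba), -0.33 to 0.79 (Hsp70Bb), -0.55 to 0.73 (Hsp70Bbb), -0.63 to 0.61 (Hsp70Bc) and -0.42 to 1.03 (sum). Larval Hsp68 between points under fluctuation ran from -0.10 to 0.066. Female constant high-against-low values ran from -0.079 to 0.018 (Hsp70Aa), -0.099 to 0.0026 (Hsp70Ab), -0.093 to 0.030 (Hsp68) and -0.069 to 0.026 (sum). Female 12-against-6-cycle values ran from -0.65 to 0.047 (Hsp70Ba) and -0.30 to 0.12 (Hsp70Bbb) at the high point, and -0.25 to 0.032 (Hsp70Ba) and -0.15 to 0.17 (Hsp70Bb) at the low point. Male Hsp68 ran from -0.019 to 0.055 at the low point, -0.0039 to 0.11 there after 6 cycles, -0.069 to 0.029 after 12 cycles, and -0.056 to 0.053 at the high point after 12 cycles. Male constant high-against-low Hsp70Bc ran from -0.064 to 0.079. Male low-point 12-against-6-cycle values ran from -0.021 to 0.60 (Hsp70Aa), -0.084 to 0.18 (Hsp70Bbb), -0.088 to 0.11 (Hsp70Bc) and -0.048 to 0.32 (sum). Differences of the A share ran from -4.26 to 3.16 points (larvae, high point), 10.6 to 15.6 (larvae, low point, where 3 against 4 libraries cannot reach 0.05) and -0.27 to 0.19 (females, low point).

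Counts of genes called moved by over 1.5 times most often in larvae: 639 at the high point (1611 with DESeq2, 1037 with the block, 22 with the compared libraries alone), 162 at the low point (523 with DESeq2, 253 alone, 44 to 270 with a library left out), 61 between points at constant temperature (1392 with DESeq2, 0 with no filter, 1 with the robust fit, 766 with the block, 753 alone), 727 between points under fluctuation (1475 with DESeq2, 240 alone) and 247 for the difference between points (1051 with DESeq2). With 1 library left out, counts ran from 167 to 1162, 0 to 1322, 427 to 813 and 75 to 640 for the larval high point, both comparisons of points (constant, fluctuating) and their difference. They ran from 798 to 2495 (all libraries 1802) for females at the low point after 12 cycles and from 567 to 1482 (all libraries 1158) for 12 against 6 cycles at the high point. In males they ran from 1809 to 3777 (all libraries 2762, high point, 6 cycles), 978 to 2326 (all libraries 1473, low point, 12 cycles), and for 12 against 6 cycles 362 to 1145 (all libraries 752, low point) and 5 to 11 (all libraries 9, high point). The shares of genes called beside the members move with these counts. With the compared libraries alone, counts fell from 1612 to 722 and from 1802 to 595 in females (12 cycles, high and low point), from 1527 to 667 in males between points at constant temperature, from 4723 to 2253 in males after 6 cycles at the low point, and from 752 to 260 and from 9 to 2 (16 with DESeq2) for 12 against 6 cycles in males at the low and high point. The high-point male-minus-female count went from 1342 to 2026 with DESeq2. Of the 5 genes most like each pattern, 4 (Hsp70 sum) and 2 (Hsp68) were kept with Spearman's rho. Group mean levels of the Hsp70 sum and Hsp68 were also taken as CPM on the library total, without TMM factors. With it 14 of them moved by at least the SD of the group and 26 moved by less.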
